A study of Mus musculus with 28 samples.

Results

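The excitatory neurons of the cerebral cortex sit in layers, and a small set of genes marks which layer a neuron belongs to. Here 9 such genes, chosen by symbol, are described in mouse frontal cortex: Cux2, Rorb and Rasgrf2 for the upper layers, Fezf2, Bcl11b, Foxp2 and Tbr1 for the deep layers, and Neurod6 and Slc17a7 for excitatory neurons of all layers. All 9 were found in both deposited tables, among 15097 genes in the table of the stress cohort and 15054 in that of the diabetes cohort, 14888 of which are in both. The rule names the genes by symbol, without a threshold on a measured value, though the list was drawn up with earlier results of these data known. All 9 entered every test.

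The 4 groups were male C57Bl/6 mice, for which the labels name no engineered allele, with 1 library per mouse. Chronic social stress (CSS, 8 mice) meant 7 weeks of living alone with 2 confrontations a day over the last 20 days, and its 8 controls had the same age of 21 weeks. Type 2 diabetes (T2D, 6 mice) was modelled by 75 mg/kg streptozotocin, which damages pancreatic beta cells, and a high-fat diet (43.2% of calories) kept up for 21 weeks. Its 6 controls were, like the T2D mice, 30 or 31 weeks old. The labels describe the controls only as being under control conditions. RNA was taken from the frontal cortex dissected out of a single side of the brain, so each value is an average over all cells of that block, in which fewer cells of a type and less RNA per cell cannot be told apart. Library totals ran from 15.2 to 21.9 M estimated counts in CSS, 14.3 to 37.5 in its controls, 14.3 to 22.7 in T2D and 12.1 to 21.6 in its controls.

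Cortical excitatory neurons are born in sequence, deep layers before upper ones, and their projection targets follow the layer. Deep-layer cells send axons out of the cortex to the thalamus, brainstem and spinal cord, while most upper-layer cells connect cortical areas with each other. Several of these genes are transcription factors that set this choice during development and stay on in the adult: Fezf2 and Bcl11b (also called Ctip2) for cells that project below the cerebrum, Tbr1 for cells that project to the thalamus. Bcl11b and Foxp2 are also abundant in the projection neurons of the striatum, which lies under the cortex and borders the tissue dissected here.

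Start-site sequences were matched by symbol in the RefSeq table for GRCm38.p6, which held 10 entries for 8 of the 9 genes, with no entry for Foxp2. The letters CANNTG, the E-box read by basic helix-loop-helix factors such as the Neurod family, lay within 250 bases before the start in 7 of these 10 entries on either strand, against 66.2% of all 32851 entries in windows of that length. The ROR letters AGGTCA, the T-box letters TCACACC, the forkhead letters TGTTTAC and the CUX letters ATCAAT were in 0 of the 10 windows, against 14, 3.33, 3.17 and 6.72% of all entries. The windows are shown for Rasgrf2, the gene that rose under stress, and for Neurod6 and Slc17a7, a pair whose levels moved together across mice. Each is the sense strand, 5′ to 3′, ending at the base before the start, with the E-boxes in capitals: chr13:92131829-92132078, minus strand, for Rasgrf2, chr6:55681264-55681513, minus strand, for Neurod6, and chr7:45163671-45163920, plus strand, for Slc17a7.
Rasgrf2: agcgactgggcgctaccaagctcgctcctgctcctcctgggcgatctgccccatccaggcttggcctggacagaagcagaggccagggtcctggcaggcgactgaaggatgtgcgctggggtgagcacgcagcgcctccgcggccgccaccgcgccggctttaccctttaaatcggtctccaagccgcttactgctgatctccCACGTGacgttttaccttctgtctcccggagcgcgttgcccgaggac
Neurod6: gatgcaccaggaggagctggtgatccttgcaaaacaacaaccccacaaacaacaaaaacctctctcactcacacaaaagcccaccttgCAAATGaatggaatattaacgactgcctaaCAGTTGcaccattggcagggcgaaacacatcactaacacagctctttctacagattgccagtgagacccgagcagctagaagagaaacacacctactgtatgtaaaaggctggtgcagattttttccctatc
Slc17a7: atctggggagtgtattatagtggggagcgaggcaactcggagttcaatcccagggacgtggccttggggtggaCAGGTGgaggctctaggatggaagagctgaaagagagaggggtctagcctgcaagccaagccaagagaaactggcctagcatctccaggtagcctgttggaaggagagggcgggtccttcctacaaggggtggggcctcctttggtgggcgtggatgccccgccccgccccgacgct
Rasgrf2 had 1 E-box, CACGTG, whose first base lies 47 bases before the start. Neurod6, itself a factor of the E-box family, had CAAATG at 162 bases before the start and CAGTTG downstream of it. Slc17a7 had CAGGTG at 177 bases before the start. Fezf2, of the 9 genes the one whose levels went most closely with Neurod6 across mice, had 0 E-boxes in its window. A match is a description of the letters and was not tested as a binding site.

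To set the genes side by side, counts per M (CPM, after TMM scaling of the library totals) were divided by the summed exon length of each gene in kb. On this scale of levels Slc17a7, which encodes the vesicular glutamate transporter VGLUT1 that loads synaptic vesicles, stood first in each group at 100.8 to 117 CPM per kb. Neurod6, a pan-excitatory transcription factor, came next at 20.3 ± 7.20 (SD, n = 6) in T2D up to 32.4 ± 8.89 (SD, n = 6) in its controls. The lowest Slc17a7 library lay above the highest Neurod6 library in all 4 groups. Rasgrf2 at 17.1 to 20.0 and Bcl11b at 14.0 to 19.8 followed, and these neighbours overlapped in each group. Tbr1 had 10.2 to 11.5, Cux2 8.55 to 8.95, Rorb 6.21 to 7.43 and Fezf2 4.13 to 6.32 CPM per kb. Foxp2 was the lowest of the 9 in each group on this scale, at 2.30 to 3.10 CPM per kb. The order depends on the exon lengths, which join the exons of all annotated transcripts: 16.35 kb for Foxp2 and 3.047 kb for Fezf2. By CPM alone Fezf2 lay below Foxp2 in the CSS controls, at 7.42 to 18.7 against 36.5 to 61.8. From Neurod6 downwards, each gene overlapped its neighbour in the order except Neurod6 over Rasgrf2 and Rorb over Foxp2 in the T2D controls and Rasgrf2 over Tbr1 in the CSS controls. No exon of the 9 genes overlaps an exon of another gene in the annotation (0% of their exon bases on either strand). Fezf2 rested on the fewest estimated counts, 92 to 672 per library, and Slc17a7 on the most, 6661 to 19997.

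**Figure D1:**
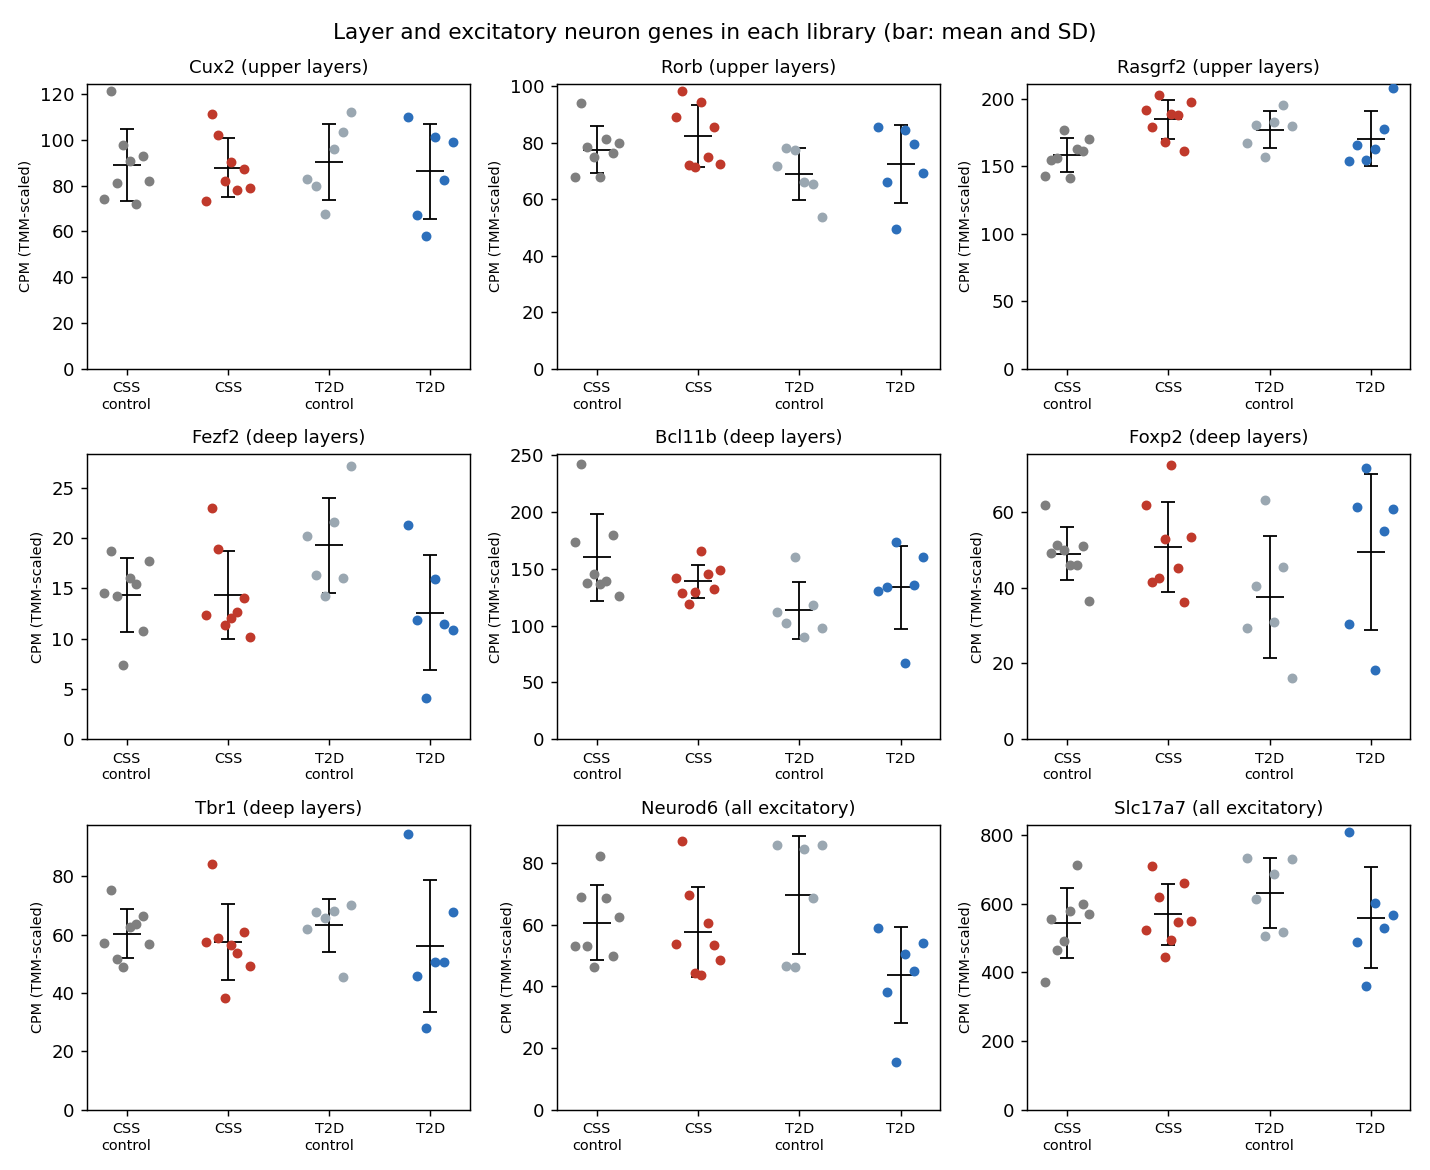
CPM (TMM-scaled, y axis from 0) of each of the 9 genes in each library of the 4 groups, with points for libraries and bars for the mean and SD. Rasgrf2 lay at 161 to 203 in the CSS libraries and at 141 to 177 in their controls. Fezf2 in T2D ran from 4.13 to 21.2.

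Under chronic social stress, 1 of the 9 genes changed: Rasgrf2, which encodes a calcium-regulated exchange factor for Ras and Rac and marks upper-layer neurons, was 1.17-fold higher. The other 8 did not pass the test, and their log2 differences ran from -0.21 (Bcl11b) to 0.09 (Rorb). The comparison asks how the cortex of stressed mice differs from that of control mice of the same age. It was tested over all 15097 genes with edgeR's quasi-likelihood test and Benjamini-Hochberg adjustment at 0.05, which called 4.52% of all genes, 2.11% as higher and 2.42% as lower, while 21.5% had an unadjusted p under 0.05. The median log2 difference of the 9 genes was -0.00, against 0.01 for all genes.

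Rasgrf2 (ENSMUSG00000021708, chromosome 13, 91880400 to 92131656, minus strand, GRCm38) had a lowest, median and highest value of 141, 159 and 177 CPM in the CSS controls. The CSS libraries had 161, 189 and 203 CPM. The groups overlapped, but 6 of 8 stressed mice lay above the highest control and none below the lowest. The means were 158 ± 12.3 (SD, n = 8) and 185 ± 14.3 (SD, n = 8), and all 8 stressed mice were above the mean of the controls. The log2 difference was 0.22 (SE 0.0568, 95% interval 0.10 to 0.34, adjusted p = 0.0331 with edgeR's quasi-likelihood test).

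The Rasgrf2 call stood near the threshold, with a size that moved little. Leaving out each of the 16 libraries in turn gave log2 differences of 0.20 to 0.25 with edgeR adjusted p-values of 0.0228 to 0.0697, and the call was kept in 7 of the 16 fits. It was lost without CSS 1, 3, 5, 6 or 8, and without CSS control 1, 2, 3 or 5. With the striatal marker score as a covariate the difference was 0.22 and the adjusted p = 0.0663 in edgeR. The sample titles of this cohort carry a code with a number after the letter C, whose meaning is not given in the sources used here and which is spread unevenly over the groups. Within code 1 the 1 stressed mouse had 192 CPM and the 4 controls 143 to 177. Within code 2 the 1 stressed mouse had 179 CPM and the 3 controls 141 to 163. Within code 3 the 3 stressed mice had 168 to 203 CPM and the 1 control 170.2, so here the groups overlapped. Code 4 held only stressed mice. With the code as a factor the log2 difference of Rasgrf2 was 0.21 with an edgeR adjusted p = 0.254, and 2 genes in all were called in place of 683.

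The other upper-layer genes stayed close to their controls. Cux2, a homeodomain factor that shapes dendrites and spines of upper-layer neurons, had 72.0, 86.2 and 121 CPM as lowest, median and highest control and 73.1, 84.6 and 111 CPM in CSS. All stressed mice lay inside the range of the controls (log2 difference -0.02, 95% interval -0.24 to 0.19, edgeR adjusted p = 0.932). Rorb, a nuclear receptor of the layer that receives input from the thalamus, had 67.7, 77.5 and 94.1 CPM in the controls and 71.6, 80.2 and 98.4 in CSS. The stressed mice overlapped with the controls, and 2 of 8 lay above the highest of them (0.09, interval -0.08 to 0.25, edgeR adjusted p = 0.576).

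Of the deep-layer genes, Bcl11b, a zinc-finger factor needed for axons that leave the cortex, had 126, 142 and 242 CPM in the CSS controls and 119, 137 and 166 CPM in CSS. The groups overlapped, with 7 of 8 stressed mice below the mean of the controls, a mean to which CSS control 2 contributed 242 CPM against 180.3 for the next library. The log2 difference of -0.21 (SE 0.112, interval -0.44 to 0.03, edgeR adjusted p = 0.295) was -0.10 without that library. Fezf2, the factor upstream of the subcerebral fate, had 7.42, 14.96 and 18.7 CPM in the controls and 10.2, 12.5 and 23.0 in CSS (-0.00, interval -0.38 to 0.38, edgeR adjusted p = 0.996). Foxp2, a forkhead factor of the deepest layer, had 36.5, 49.6 and 61.8 CPM in the controls and 36.1, 49.0 and 72.4 in CSS. Its log2 difference was 0.05 (interval -0.21 to 0.31, edgeR adjusted p = 0.853). Tbr1, a T-box factor of the deepest layer, had 48.8, 59.9 and 75.1 CPM in the controls and 38.3, 56.9 and 84.3 in CSS (-0.07, interval -0.32 to 0.18, edgeR adjusted p = 0.769). For each of the 4 genes the stressed mice and the controls overlapped.

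The pan-excitatory genes overlapped as well. Neurod6 had 46.2, 57.9 and 82.1 CPM in the CSS controls and 43.8, 53.5 and 87.3 in CSS (log2 difference -0.07, interval -0.37 to 0.23, edgeR adjusted p = 0.815). Slc17a7 had 372, 563 and 713 CPM in the controls and 445, 549 and 711 in CSS, with all stressed mice inside the range of the controls (0.07, interval -0.17 to 0.30, edgeR adjusted p = 0.775). No member had groups that did not overlap, against 0.609% of all genes in this comparison.

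Markers of other cells moved in the same comparison as Rasgrf2, and their part in its difference was not tested. Of 4 markers of oligodendrocyte precursors 2 rose (Gpr17 and Tnr), and their summed level was 302 to 354 CPM in the controls and 336 to 409 in CSS. Of 6 astrocyte markers 1 rose (Slc1a2), with sums of 3145 to 3677 and 3550 to 4435 CPM. Of 6 microglial markers 3 fell (C1qa, C1qb and Csf1r), with sums of 199 to 234 and 126 to 201 CPM. Of 5 endothelial markers 1 rose (Slco1a4), with sums of 130 to 159 and 125 to 187 CPM, and of 5 meningeal markers 1 rose (Col1a1), with sums of 20.6 to 47.6 and 25.0 to 76.2 CPM. Of 12 markers of inhibitory neurons 2 fell (Npy and Sst), with sums of 797 to 1065 and 729 to 1019 CPM. Of these 12, 9 were on the negative side and 3 on the positive, with Gad1 at 0.06 and Gad2 at -0.02. On the positive side were 4 of 4 precursor, 6 of 6 astrocyte, 1 of 6 microglial, 4 of 5 endothelial and 5 of 5 meningeal markers. Among all genes 4.52% were called in this comparison.

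Further genes of the same layers showed little change under stress. Of 15 other upper-layer genes 14 were tested and 0 were called, with a median log2 difference of -0.00. Of 11 other layer 5 genes 1 rose: Trib2, a pseudokinase, with 36.0, 39.3 and 53.0 CPM as lowest, median and highest control and 38.6, 53.4 and 64.8 CPM in CSS. The groups overlapped, and 7 of 8 stressed mice were above the mean of the controls (0.39, SE 0.100, edgeR adjusted p = 0.0331). Of 12 other layer 6 genes 11 were tested and 0 were called. Of 11 other genes listed here as pan-excitatory 1 fell: Mef2c, an activity-regulated transcription factor. Mef2c had 596, 730 and 916 CPM in the controls and 467, 598 and 707 in CSS (-0.31, SE 0.0869, edgeR adjusted p = 0.0477, below the control mean in 8 of 8). Which cells its change belongs to cannot be told from averages over all cells of the block. None of the 11 paralogs tested out of 14, such as Cux1 and Foxp1, was called.

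In type 2 diabetes none of the 9 genes passed the test, and neither did any other gene: edgeR's quasi-likelihood test called 0 of 15054 genes (0%) after Benjamini-Hochberg adjustment, with 879 genes (5.84%) at an unadjusted p under 0.05, and DESeq2 called 4 in all. The comparison asks how the cortex of diabetic mice differs from that of controls of the same age. The members' log2 differences ran from -0.68 (Neurod6) to 0.40 (Foxp2), with a median of -0.07 against 0.00 for all genes. The spread between mice was wide for these genes in this cohort, and the intervals below show which sizes the data leave possible.

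Neurod6 (ENSMUSG00000037984, chromosome 6, 55677822 to 55681263, minus strand) had 46.2, 76.6 and 85.9 CPM as lowest, median and highest T2D control. The T2D libraries had 15.6, 47.6 and 58.8 CPM. The groups overlapped, with 3 of 6 T2D mice below the lowest control and 6 of 6 below the control mean. The means were 69.6 ± 19.1 (SD, n = 6) and 43.6 ± 15.5 (SD, n = 6). The log2 difference was -0.68 (SE 0.279, 95% interval -1.28 to -0.07), with an unadjusted p = 0.0317 and an adjusted p = 0.825 from edgeR. Without T2D 3, the library with 15.6 CPM, it was -0.50 (edgeR adjusted p = 0.875).

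Fezf2 (ENSMUSG00000021743, chromosome 14, 12342094 to 12348189, minus strand) had 14.2, 18.3 and 27.2 CPM in the T2D controls and 4.13, 11.7 and 21.2 CPM in T2D. The groups overlapped, with 4 of 6 T2D mice below the lowest control. The log2 difference was -0.61 (SE 0.290, interval -1.24 to 0.01, unadjusted p = 0.0529, edgeR adjusted p = 0.825). Without T2D 3, the lowest library, it was -0.43 (edgeR adjusted p = 0.875). Tbr1, the other deep-layer gene whose levels went with Fezf2 across mice, had 45.4, 66.8 and 70.1 CPM in the controls and 28, 50.6 and 94.3 in T2D. Here T2D mice lay on both sides of the control range (-0.17, interval -0.65 to 0.31, edgeR adjusted p = 0.926).

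Foxp2 and Bcl11b, the genes shared with the striatum, had the highest positive differences, each inside the spread between mice. Foxp2 had 16.1, 35.7 and 63.2 CPM in the T2D controls and 18.2, 57.9 and 71.4 CPM in T2D, with 1 of 6 T2D mice above the highest control. Its log2 difference was 0.40 (SE 0.356, interval -0.38 to 1.17, edgeR adjusted p = 0.875). Bcl11b had 90.1, 108 and 160.2 CPM in the controls and 67.6, 135 and 174 in T2D, with T2D mice on both sides of the control range (0.24, SE 0.192, interval -0.18 to 0.65, edgeR adjusted p = 0.862). With the striatal marker score as a covariate the difference was -0.02 for both, with edgeR adjusted p = 0.993 for Foxp2 and 0.992 for Bcl11b. All 19 striatal markers were in the tables and were on the positive side in T2D, with a median log2 difference of 0.56 and 0 called. Markers of other regions near the block also lay on that side, with 0 called in each list: 6 of 6 olfactory bulb markers (median 1.16, sums of 23.7 to 39.1 CPM in the controls and 20.8 to 195 in T2D), 5 of 5 claustrum markers (median 0.51) and 6 of 7 thalamic markers (median 0.41, sums of 55.9 to 111 and 55.7 to 172.5 CPM). The claustrum sums, 74.3 to 107 CPM in the controls and 110.1 to 141 in T2D, did not overlap. How often sums of as many other genes lie apart was not computed. Of the hippocampal, meningeal and inhibitory neuron markers, 3 of 4, 4 of 5 and 9 of 12 were on the positive side. All 6 oligodendrocyte markers were on the negative side, and 0 were called in each of these lists. All 6 microglial markers were on the negative side (median -0.35, sums of 142 to 216.5 and 103 to 188 CPM, 0 called). The part of these tissues and cells in the members' differences was not tested.

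The remaining genes of the T2D comparison differed less. Slc17a7 had 505, 652 and 734 CPM in the controls and 362, 548 and 808 in T2D (-0.17, interval -0.52 to 0.17, edgeR adjusted p = 0.877). Cux2 had 67.4, 89.4 and 112 CPM in the controls and 57.8, 90.7 and 110.1 in T2D (-0.07, interval -0.41 to 0.28, edgeR adjusted p = 0.957). Rorb had 53.6, 68.9 and 78.3 CPM in the controls and 49.5, 74.3 and 85.6 in T2D (0.07, interval -0.20 to 0.35, edgeR adjusted p = 0.944). Rasgrf2 had 157, 180.5 and 195 CPM in the controls and 154, 164 and 208 in T2D (-0.06, interval -0.23 to 0.12, edgeR adjusted p = 0.933). In these 4 genes the groups overlapped, and no member had groups apart, against 0.146% of all genes. No gene of the lists of other layer genes or paralogs was called.

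**Figure D2:**
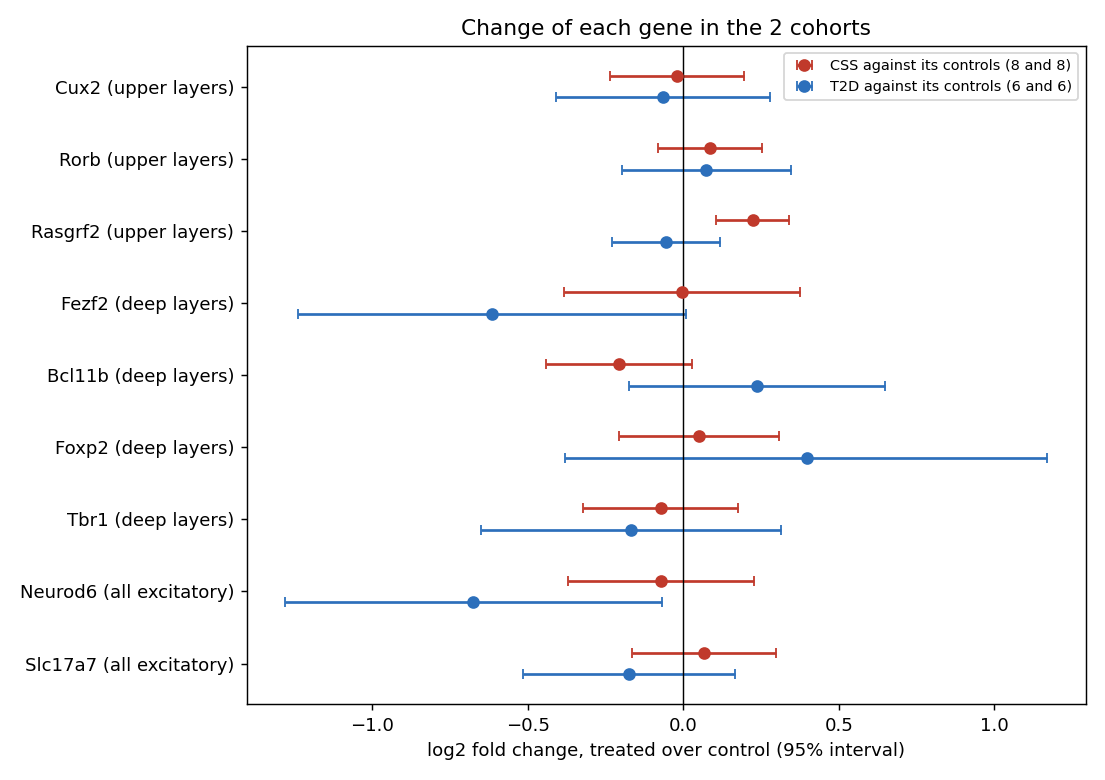
Log2 fold change of each gene (x axis, treated over control) with its 95% interval, for CSS with 8 and 8 libraries and T2D with 6 and 6. The interval of Rasgrf2 under CSS runs from 0.10 to 0.34, and those of Neurod6 and Fezf2 in T2D are among the widest and reach -0.07 and 0.01.

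Whether the members responded differently to the 2 conditions was tested as the CSS change minus the T2D change over the 14888 shared genes, where edgeR's quasi-likelihood test called 0.0806% of all genes (0.047% higher, 0.0336% lower) and 0 of the 9. At an unadjusted p under 0.05 the share of all genes was 12.4%, and DESeq2 called 130 genes in all. Rasgrf2 had a difference of changes of 0.27 (SE 0.096, 95% interval 0.08 to 0.47, unadjusted p = 0.00813, edgeR adjusted p = 0.249). Fezf2 and Neurod6 had 0.60 each, with edgeR adjusted p-values of 0.486 and 0.434, and Bcl11b had -0.45 with 0.411. Foxp2 had -0.35 (edgeR adjusted p = 0.721), Slc17a7 0.23, Tbr1 0.09, Cux2 0.04 and Rorb 0.00. The difference for Rasgrf2 thus had an interval above 0 for the gene alone but did not pass over all genes. In the same contrast 19 of 19 striatal, 6 of 6 olfactory bulb and 5 of 5 claustrum markers were on the negative side. Their median differences of changes were -0.78, -1.67 and -0.45, with 0 called in each list. Of 7 thalamic markers 5 were negative and 2 positive. The part of these tissues in the members' differences of changes was not tested.

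The dissected block held markers of striatum, and their amount varied between mice. The 4 defining markers of striatal projection neurons, the dopamine receptors Drd1 and Drd2, the adenosine receptor Adora2a and the signalling protein Ppp1r1b, were at 0 in no library. Drd1 ran from 68.1 to 116 CPM in the CSS controls, 72.4 to 106 in CSS, 26.6 to 108 in the T2D controls and 15.3 to 152 in T2D. Slc17a7 and Camk2a, listed here as genes of excitatory neurons, were high throughout, with Camk2a at 549 to 1022 CPM. The sum over the 19 striatal markers was 1793 to 3617 CPM in the CSS controls, 1661 to 2556 in CSS, 776 to 2986 in the T2D controls and 627 to 3228 in T2D. Under stress 18 of the 19 were on the negative side, with a median log2 difference of -0.24 and 0 called. Olfactory bulb markers were on that side in 6 of 6 (median -0.43) and claustrum markers in 3 of 5 (median -0.04). Thalamic markers were on the positive side in 6 of 7 (median 0.18), and 0 were called in each of these lists.

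Each member was set against a striatal score, the mean log2 CPM of those 19 markers, as deviations from group means so that group differences could not enter. There were 18 such relations, 9 genes in 2 cohorts, with two-sided permutation tests within groups and Benjamini-Hochberg adjustment over the 18. The share of all genes that follow the score was not computed, so the relations called cannot be said to be particular to these genes. Bcl11b rose with the score in both cohorts: Pearson r was 0.812 in the 16 libraries of the CSS cohort (adjusted p = 0.00342; Spearman rho 0.815, adjusted p = 0.00396) and 0.898 in the 12 of the T2D cohort (adjusted p = 0.00894; rho 0.923, adjusted p = 0.00216). Foxp2 did so in the T2D cohort, with r = 0.930 (adjusted p = 0.00072; rho 0.916, adjusted p = 0.00216). In the CSS cohort Foxp2 had r = 0.537 (adjusted p = 0.0619) and rho = 0.621 (adjusted p = 0.0159). Without the 2 libraries farthest from the median score, CSS control 2 and 6 in one cohort and T2D 4 and T2D control 6 in the other, r was 0.790 and 0.838 for Bcl11b and 0.636 and 0.790 for Foxp2, all of which passed the adjusted permutation test.

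Of the other 7 members none passed the test of Pearson r over all libraries, and by rho Fezf2 and Slc17a7 passed in the T2D cohort, both negative. Fezf2 had r = -0.387 and -0.526 in the CSS and T2D cohorts (adjusted permutation p = 0.285 in each), with rho = -0.482 and -0.811 (adjusted p = 0.139 and 0.0158). Neurod6 had r = -0.521 and -0.440 (adjusted permutation p = 0.126 and 0.285; rho -0.529 and -0.448, adjusted p = 0.106 and 0.259). Slc17a7 had r = -0.497 and -0.486 (adjusted permutation p = 0.219 and 0.285; rho -0.476 and -0.748, adjusted p = 0.160 and 0.0302). Without the 2 farthest libraries Fezf2 in both cohorts (-0.632 and -0.405), Neurod6 in the CSS cohort (-0.703) and Slc17a7 in the T2D cohort (-0.559) passed the permutation test. Rasgrf2 had r of -0.03 and 0.05 (adjusted permutation p = 0.938 in each). Cux2, Rorb and Tbr1 had r from -0.517 to 0.177, and none passed. For some members the groups of a cohort differed in sign. Cux2 had r = -0.763 in CSS and 0.557 in its controls, and Rorb had -0.492 in T2D and 0.782 in its controls. Tbr1 had -0.350 in CSS and 0.221 in its controls. Rasgrf2 had 0.0249 in CSS and -0.0657 in its controls, and 0.256 in T2D and -0.309 in its controls. These differences were not tested.

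**Figure D3:**
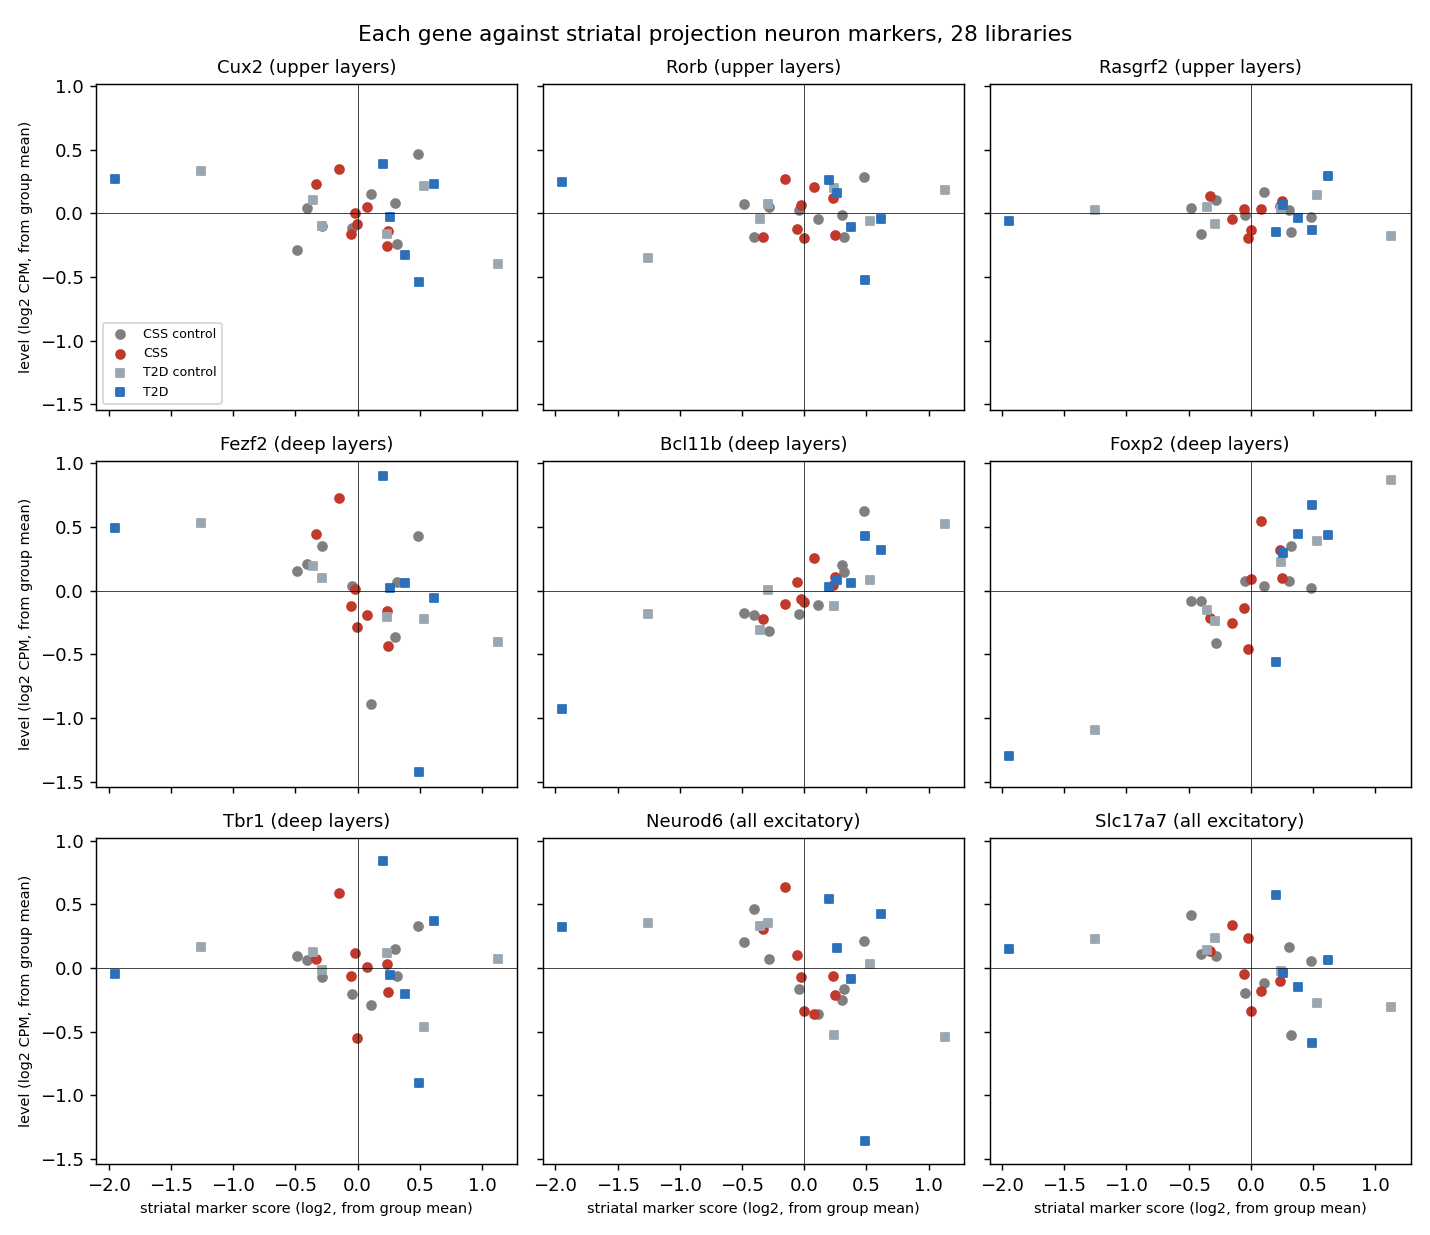
Level of each gene (log2 CPM) against the striatal marker score, both as deviations from the group mean, with 1 point for each of the 28 libraries. Bcl11b and Foxp2 climb with the score, with T2D 4 at the lower left of both, while Rasgrf2 has r of -0.03 and 0.05.

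The members also moved with each other. Over the 28 libraries, again as deviations from group means, 16 of the 36 pairs of members passed an adjusted permutation test of Pearson r, 12 of them positive and 4 negative. The share of all gene pairs that would pass the same test was not computed, so this count cannot be called particular to these genes. The closest pair was Fezf2 and Neurod6 at r = 0.869 (adjusted p = 0.00036 by permutation, rho 0.834), with 0.830 and 0.897 within the CSS and T2D cohorts and 0.792 without the 2 farthest libraries. Tbr1 and Slc17a7 had 0.766, Neurod6 and Slc17a7 0.753, and Fezf2 and Tbr1 0.752 (adjusted permutation p = 0.00054, 0.00054 and 0.0015). Bcl11b and Foxp2 went together at 0.735 (adjusted p = 0.00054 by permutation, rho 0.683). The 4 negative pairs by Pearson r all held Foxp2: with Slc17a7 at -0.670, Fezf2 at -0.635, Neurod6 at -0.587 and Cux2 at -0.556 (adjusted permutation p = 0.0013, 0.0058, 0.0347 and 0.0246). By rho a negative pair without Foxp2 also passed, Fezf2 and Bcl11b at -0.516 (adjusted permutation p = 0.021). Its Pearson r was -0.409 (adjusted permutation p = 0.218). So deep-layer members did not form 1 group: Fezf2 and Tbr1 went with the pan-excitatory genes, and Foxp2 against them. Rasgrf2 was in none of the 16 pairs, its highest r being 0.268 with Cux2.

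**Figure D4:**
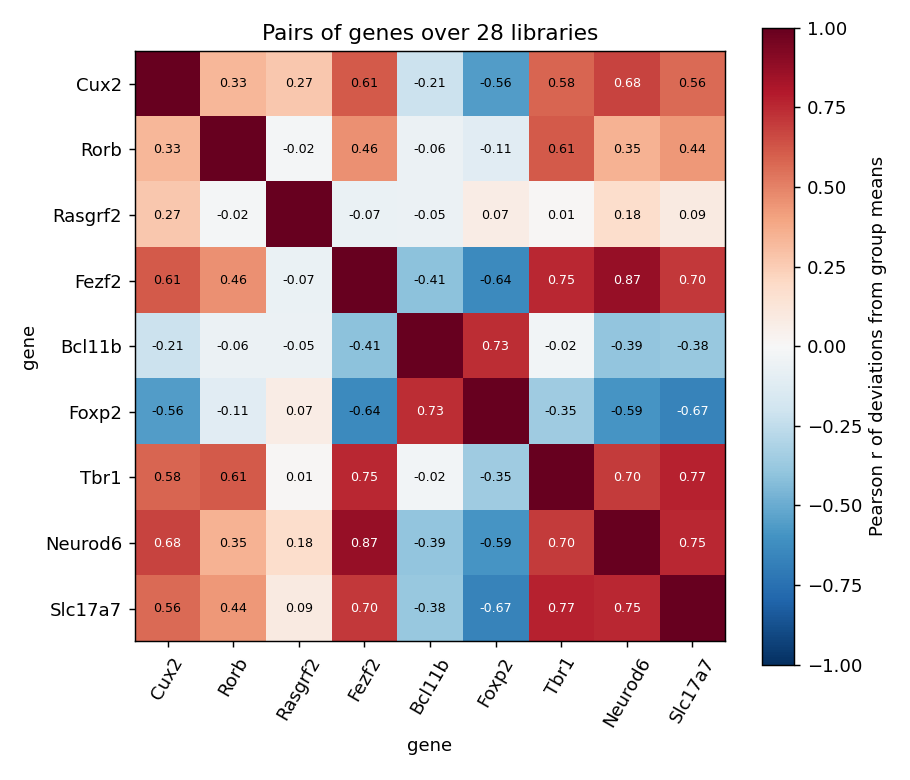
Pearson r for each pair of the 9 genes over 28 libraries, as deviations from group means, on a colour scale from -1 to 1. Cux2, Fezf2, Tbr1, Neurod6 and Slc17a7 form a positive block, Bcl11b and Foxp2 a second one at 0.735, and Rasgrf2 has values between -0.07 and 0.27.

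Some single mice showed the same split and others did not. They are part of the values behind the pairs above, so they add no separate support. T2D 3 had the lowest value of its group for 6 of the 9 genes (Cux2, Rorb, Fezf2, Tbr1, Neurod6 and Slc17a7) and the highest for Bcl11b and Foxp2. T2D control 3 had the lowest value of its group for 5 genes (Cux2, Rasgrf2, Fezf2, Neurod6 and Slc17a7), and again the highest for Bcl11b and Foxp2. CSS control 2 went otherwise, with the highest Cux2, Rorb, Fezf2 and Tbr1 of its group and also the highest Bcl11b. T2D 1 and CSS 2 each had the highest value of their group for the same 6 genes that were lowest in T2D 3. T2D 4 had the lowest Bcl11b (67.6 CPM), the lowest Foxp2 (18.2 CPM) and the lowest striatal sum (627 CPM) of the T2D group. Summed olfactory bulb markers, of which 6 of 8 were in the tables, were 195 CPM in T2D 3 against 20.8 to 46.4 in the other T2D mice. Leaving out T2D 3, T2D 4 and T2D control 6 together, a choice made after seeing the data, gave log2 differences of -0.44 for Neurod6, -0.34 for Fezf2, 0.30 for Foxp2 and 0.26 for Bcl11b, none of which was called (edgeR adjusted p = 0.9998 for each).

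As a single measure of the layers, the mean log2 CPM of the 3 upper-layer members minus that of the 4 deep-layer members was computed per library, with no test. It was 1.03 ± 0.210 (SD, n = 8) in the CSS controls and 1.19 ± 0.0582 (SD, n = 8) in CSS, and the stressed mice, at 1.103 to 1.257, lay inside the range of the controls, 0.71 to 1.43. In the T2D cohort it was 1.15 ± 0.204 (SD, n = 6) in the controls and 1.22 ± 0.302 (SD, n = 6) in T2D. T2D 4 had the highest value of all libraries, 1.82, and the lowest striatal score. Bcl11b and Foxp2, which went with the striatal score, are part of the deep side of this measure, and the part of striatal tissue in it was not tested.

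The genes whose deviations were most like those of each member, among 12692 genes over the 28 libraries, differed between the members. For Foxp2 they were Isl1 (r = 0.942) and Strip2 (0.939), and for Bcl11b Gng7 (0.911) and Adcy5 (0.909), of which Isl1, Gng7 and Adcy5 belong to the list of striatal markers. For Slc17a7 they were Olfm1 (0.952) and Golga7b (0.922), for Neurod6 Fam131a (0.919) and Vxn (0.903), for Tbr1 Spock1 (0.921) and Cyfip2 (0.920), and for Fezf2 Pde1a (0.918) and Lmna (0.901). The upper-layer members had weaker partners: Tacc2 (0.796) and Sorbs2 (0.779) for Rorb, Acsl5 (0.774) and Afap1l1 (0.741) for Cux2, and Ythdc2 (0.683) and Nup153 (0.668) for Rasgrf2. These are correlations over shared libraries, given as a description with no test.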

How the data were processed

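Frontal cortex total RNA of 28 mice was sequenced after ribosomal RNA depletion with a stranded kit, per the labels' protocols. The authors deposited estimated counts per gene, 1 table per cohort, and the submitters' processing notes name Salmon 1.1.0 and mm10. The summing of transcripts to genes, the use of strand and the removal of low genes are not described there. Counts were rounded, TMM-scaled and tested with edgeR 4.0.16 (glmQLFit with robust dispersion, glmQLFTest, Benjamini-Hochberg over all genes, adjusted p under 0.05). The default filter of edgeR on low counts removed 0 genes. CPM use the TMM-scaled totals, and log2 CPM a prior count of 2. Intervals are 95% intervals from the SE of the fit.

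Correlations used deviations from group means, 100000 permutations within groups and two-sided p-values, the lowest possible being 1e-05. Coordinates, exon lengths and exon overlaps came from GENCODE M21 (GRCm38), which held 99.8% of the identifiers of each table, and start-site sequences from RefSeq (GRCm38.p6). The fits were tested on simulated data. Alternatives were DESeq2 1.42.0, RLE and upper quartile scaling, other filters, RIN, the striatal score, a surrogate variable (sva 3.50.0), the replicate number as a block, the title code and leaving out libraries. The genes named are the members, the called genes of each list and the 2 genes most like each member. Members and lists were chosen with earlier results of these data known. A further list of developmental genes is not reported here. The labels give separate animals, and no extraction or sequencing batch was found in them.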

Additional observations from a re-analysis of the deposited data

Results flagged for a closer look

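Within each group, the highest or lowest library was compared with its nearest neighbour for 48 sets of values, and 8 stood apart by Dixon's criterion. For independent sets of normally distributed values chance alone gives about 1 in 20. Most sets here were untransformed CPM, and they share libraries and genes, so the 8 cannot be set against that rate.

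Bcl11b in CSS control 2 was 242.3 CPM against 180.3 in the next library, and that mouse also had the highest striatal sum of its group. Tbr1 in T2D control 5 was 45.38 CPM against 61.8 in the next lowest library. The upper minus deep measure of T2D 4 was 1.818 against 1.202, and its striatal sum was 627.4 CPM against 2291 in the next lowest T2D library. In T2D control 3 the upper minus deep measure was 0.7511 against 1.147, in the mouse with the highest Bcl11b and Foxp2 of its group. Summed olfactory bulb markers were 95.95 CPM in CSS 4 against 54.35, 174.5 CPM in CSS control 4 against 66.14, and 195.3 CPM in T2D 3 against 46.41. CSS control 4 and T2D 3 also had the lowest Fezf2, Tbr1 and Neurod6 of their groups. What the tissue of these libraries held was not tested.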

How the results depend on the processing

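The count of genes called under CSS, 683 in all, was 1313 with DESeq2, 215 with the striatal score as a covariate, 55 without CSS control 2 and 4 (chosen after seeing the data), 2 with the title code as a factor and 222 to 794 when single libraries were left out. The count of members called under CSS, 1, was 0 with the striatal score, the replicate block, the title code and without CSS control 2 and 4, and 0 to 1 with single libraries left out. DESeq2 called 4 genes in T2D in place of 0. For the CSS change minus the T2D change, 12 genes in all, the count was 130 with DESeq2, 0 with RIN, 0 with the striatal score, 32 with the replicate block and 0 to 32 with single libraries left out.

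Deviations of same-numbered treated and control libraries had r of -0.17 to 0.33 in the CSS cohort and 0.01 to 0.16 in the T2D cohort. The highest r was with the own number in 2 of 8 and 0 of 6. The labels do not say what the replicate numbers stand for, and these values cannot exclude a pairing of the mice. With the replicate block Rasgrf2 had 0.22 under CSS (edgeR adjusted p = 0.0687), and Neurod6 had -0.73 in T2D (edgeR adjusted p = 0.322).

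Log2 differences of members that were not called changed sign as follows. Under CSS, Cux2 was 0.0091 with the striatal score, 0.013 with a surrogate variable, 0.0908 without CSS control 2 and 4 and 0.0708 with the title code. Slc17a7 was -0.00364 with the striatal score. Fezf2 was 0.0286 with a surrogate variable and 0.0963 with the title code, and Tbr1 and Neurod6 were 0.0775 and 0.0346 with the title code. In T2D, Cux2 was 0.0488 with RIN, 0.0362 with the striatal score and 0.0635 without T2D 3, T2D 4 and T2D control 6, where Tbr1 was 0.0687. Rorb was -0.0291 with RIN, and Bcl11b and Foxp2 were -0.0196 and -0.015 with the striatal score. For the difference of changes, Cux2 was -0.0391 with RIN and -0.0686 with the striatal score, and Foxp2 was 0.16 with the latter. With single libraries left out, members that changed sign ranged under CSS from -0.0815 to 0.0521 (Cux2), -0.141 to 0.0589 (Fezf2), -0.0467 to 0.108 (Foxp2) and -0.189 to 0.00332 (Neurod6), in T2D from -0.149 to 0.0276 (Cux2), and in the difference of changes from -0.0528 to 0.129 (Cux2), -0.0838 to 0.0663 (Rorb) and -0.0542 to 0.308 (Tbr1). Against the striatal score without the 2 farthest libraries, r was -0.431 for Cux2 and 0.0512 for Rasgrf2 in the CSS cohort and -0.0426 for Rasgrf2 in the T2D cohort, and the relations called were 4 in each cohort in place of 1 and 2. The causes of these shifts were not tested. Of the 386 alternative values other than those with single libraries left out, 339 kept their direction and their side of the threshold or, for counts and means, stayed close to the reported value. Most members were not called in the reported fits, so staying on that side says little about how stable their values are. The only member called, Rasgrf2, lost its call in several of the alternatives, as given above. Fezf2, at 92 to 672 estimated counts a library, is the member with the lowest counting precision.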
